A study of Mus musculus with 36 samples.

Results

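The matrix metalloproteinases and their tissue inhibitors described here are 10 genes, found by an exact match of the gene symbol: Mmp2, Mmp3, Mmp9, Mmp10, Mmp11, Mmp13, Mmp14, Mmp19, Timp1 and Timp3. They are 10 of the 39017 genes of the count table. All 10 were present, and 9 passed the filter on low counts that left 14439 genes for testing. Mmp10 did not pass and is given by its counts.

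The cells were pancreatic fibroblasts of the mouse strain C57BL/6, and their RNA was sequenced in 36 libraries, 4 from each of 9 groups. In the 8 co-culture groups the fibroblasts had shared a dish for 48 h with 1 tumour line that carried GFP, and flow sorting on GFP then separated them. The lines were the tumour sub-clones E, H, K, M, N, T and V, each a single clone, and KPC1, a name that the labels do not explain. The control group was a mono-culture of the fibroblasts, titled PSC, a name that the labels do not explain either, and whether these cells also went through the sorter is not given. The labels do not say whether the 4 libraries of a group came from separate cultures, so the p-values below measure the spread between libraries only, which may be technical.

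Library totals lay between 12532122 and 21985538 counts. The 9 fibroblast markers examined summed to between 10884 and 32040 CPM in every library, where CPM are counts per 1000000 of the scaled library total. The mean sum was 21948 CPM in mono-culture and 23232 to 26707 CPM with clones E, K, M and N. It was 17125 with clone T, 17023 with H, 16673 with V and 14794 with KPC1. With KPC1 Pdgfra averaged 107 CPM against 312 in mono-culture and Dcn 69.2 against 317. Pdgfrb, Vim and Thy1 were higher with KPC1 than in mono-culture. The 3 stellate or myofibroblast markers summed to a mean of 184 CPM in mono-culture and 244 to 881 CPM in co-culture. The 11 epithelial markers examined summed to 0.989 to 1.76 CPM in the mono-culture libraries and to 18.5 to 802 CPM in the co-culture libraries. The keratins Krt8, Krt18 and Krt19 were the largest part in co-culture. Cdh1 averaged 0.258 CPM in mono-culture, 30.9 with KPC1, 26.4 with clone N, 22.2 with clone E and 0.0304 with clone M. Cldn3 averaged 0.00 CPM in mono-culture and 2.03 with clone T, and Elf3 0.0138 CPM and 2.30 with clone N. Krt7 averaged at most 0.968 CPM (clone M) and Cldn7 at most 0.281 CPM (mono-culture). Epcam reached at most 0.495 CPM (in a mono-culture library), Cldn4 at most 2 counts and Esrp1 at most 3 counts in any library. Tumour cell RNA in the sorted fractions and expression by the fibroblasts cannot be told apart in bulk RNA. Likewise, fewer cells that express a gene and less RNA per cell give the same fall. The part of the epithelial RNA or of the fibroblast marker levels in the results below was not tested.

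Matrix metalloproteinases are zinc enzymes that cut collagens, proteoglycans and other proteins outside the cell. They are made with a pro-peptide that keeps them inactive, and other proteases, among them plasmin, furin and other metalloproteinases, remove it. Mmp14 is anchored in the membrane and activates pro-Mmp2 at the cell surface, Mmp2 and Mmp9 are the gelatinases, Mmp3, Mmp10 and Mmp11 are named stromelysins, and Mmp13 is a collagenase. The Timp proteins bind the active site and block it, and fibroblasts are a main source of both in connective tissue and in pancreatic tumours.

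Mmp3, Mmp10 and Mmp13 lie together on chromosome 9, within 238 kb from the start of Mmp13 to the end of Mmp10 (GRCm38 coordinates, the build that the submitters name as mm10). Secreted metalloproteinases of this cluster are known for promoters with a site for AP-1, the dimer of Fos and Jun proteins, close to the start. The 250 bases before the RefSeq start (GRCm38.p6) of these genes are shown since they are the members with few or no counts in mono-culture, with Mmp14 as an abundant member for contrast. Capitals mark TGANTCA, the letters searched for AP-1, which read the same on both strands.

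Mmp3, chr9:7445572-7445821, plus strand: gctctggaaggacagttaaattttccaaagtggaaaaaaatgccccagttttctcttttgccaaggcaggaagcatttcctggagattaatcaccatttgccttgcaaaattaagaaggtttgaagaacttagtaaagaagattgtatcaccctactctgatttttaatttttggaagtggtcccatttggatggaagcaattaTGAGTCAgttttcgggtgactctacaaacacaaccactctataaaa
Mmp10, chr9:7502092-7502341, plus strand: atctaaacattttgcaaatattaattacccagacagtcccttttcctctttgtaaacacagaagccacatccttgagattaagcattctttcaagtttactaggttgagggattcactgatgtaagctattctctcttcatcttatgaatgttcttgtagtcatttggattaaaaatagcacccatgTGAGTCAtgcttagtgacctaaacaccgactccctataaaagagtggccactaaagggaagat
Mmp13, chr9:7272264-7272513, plus strand: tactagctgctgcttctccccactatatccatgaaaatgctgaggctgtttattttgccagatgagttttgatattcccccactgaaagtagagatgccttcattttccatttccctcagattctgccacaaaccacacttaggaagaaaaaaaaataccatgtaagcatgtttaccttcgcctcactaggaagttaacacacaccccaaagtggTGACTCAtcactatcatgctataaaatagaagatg
Mmp14, chr14:54431348-54431597, plus strand: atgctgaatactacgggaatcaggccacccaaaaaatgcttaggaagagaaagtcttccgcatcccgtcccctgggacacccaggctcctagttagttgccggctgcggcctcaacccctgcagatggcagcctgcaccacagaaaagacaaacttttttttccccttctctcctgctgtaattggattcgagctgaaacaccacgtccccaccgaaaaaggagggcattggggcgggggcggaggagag

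The match began 46 bases before the start in Mmp3, 63 bases before it in Mmp10 and 35 bases before it in Mmp13. Of the 10 members, 7 had an entry in the promoter table, and these 3 of the 7 held the letters. The windows of Mmp11, Mmp14, Timp1 and Timp3 did not hold them. Over all 32851 promoters of the table, 6.75% held the letters in the same window. A match is a string of letters and not a measured site.

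Each co-culture was first compared with the mono-culture, which asks how the sorted fibroblast fraction of that co-culture differed from fibroblasts cultured alone. All 8 comparisons share the same 4 mono-culture libraries. Mmp14, Mmp2 and Mmp9 were lower in co-culture, Mmp13 and Mmp19 were higher with most lines, and Mmp3, Mmp11, Timp1 and Timp3 depended on the line. Members past an adjusted p of 0.05 (edgeR quasi-likelihood test, adjusted over the 14439 genes) numbered 8 of the 9 tested with clone E, where 32% of all genes tested were called, 6 with clone H (54.2% of all genes), 6 with clone K (19.1%) and 7 with clone M (23%). They numbered 9 with clone N (39.0% of all genes), 7 with clone T (49.8%), 8 with clone V (58.3%) and 6 with KPC1 (59.0%). Mmp13, which was nearly absent from the mono-culture, passed the filter through its level in co-culture, so its call was favoured by that choice. The 6 members with at least 10 counts in every library are free of this, and of these 4 to 6 were called with each line. In a fit of the 11625 genes with such counts, 7254 were called with KPC1, where 4 of the 6 members were. With clone K 2419 of these genes were called, where 5 of the 6 members were.

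**Figure D1:**
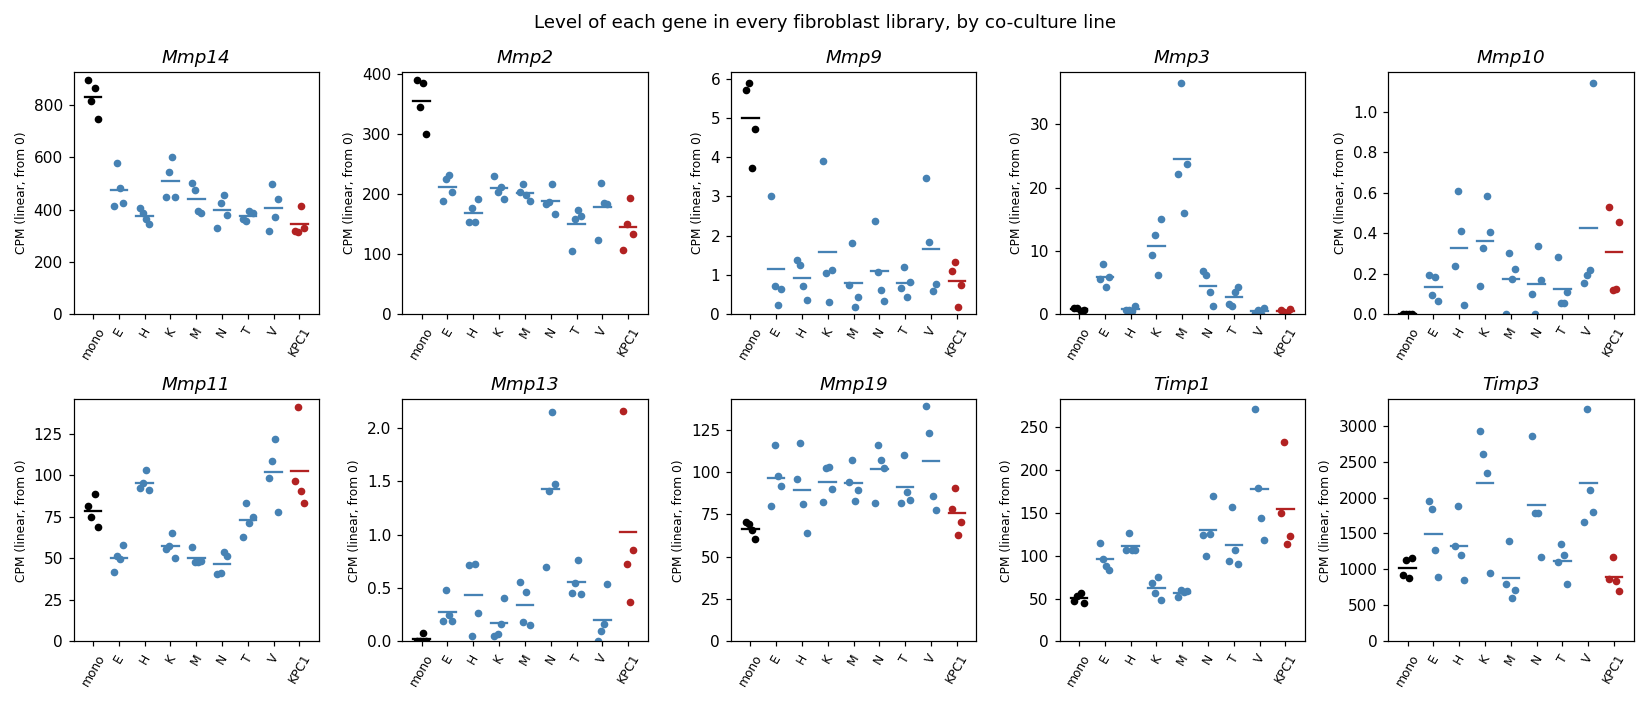
CPM of the 10 members (1 panel each, linear axes from 0) in the 36 libraries, by group: mono-culture in black, the 7 clones in blue and KPC1 in red. Points are libraries and horizontal lines are means of 4. The mono-culture points of Mmp14 and Mmp2 sit above all 32 co-culture points, and the points of Mmp3 spread from near 0 with H, V and KPC1 to 36.5 CPM with clone M.

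**Figure D2:**
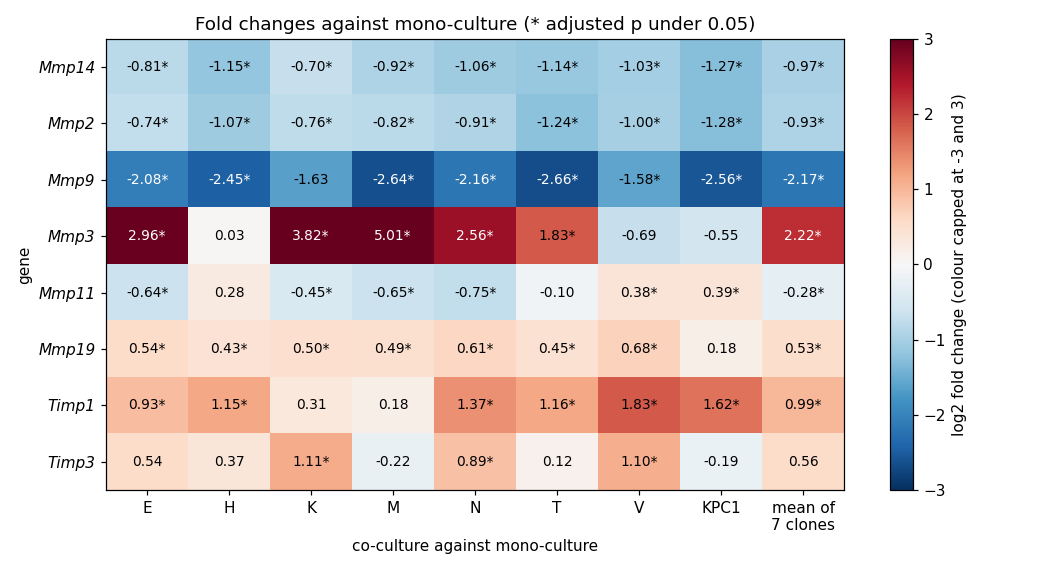
Log2 fold change of 8 members (rows) in each co-culture and in the mean of the 7 clones (columns) against mono-culture, with an asterisk where the adjusted p was under 0.05. Mmp10 was not tested, and Mmp13 is left out because its mono-culture libraries hold 1 count in all. The rows of Mmp14 and Mmp2 are negative throughout, and the row of Mmp11 holds both signs.

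Mmp14 (ENSMUSG00000000957, chr14:54431612-54445364, plus strand), the membrane-type enzyme that activates pro-Mmp2, was the most abundant metalloproteinase of the set and fell with every line. The mono-culture libraries read 898, 814, 865 and 747 CPM. With KPC1, the lowest line, they read 317, 313, 414 and 330 CPM, and with clone K, the highest, 450, 545, 602 and 447 CPM. The groups did not overlap in any of the 8 comparisons, and all 32 co-culture libraries (313 to 602 CPM, median 400) were below the lowest mono-culture library, a pattern seen for 4.17% of all genes tested. Mmp2 had the same pattern. For other members and for sums, separation from the mono-culture is given below by line or by library. No share of all genes was computed for those separations, so how common they are is not known. The mean fell from 831 ± 65.9 CPM (SD, n = 4) to between 344 ± 47.6 with KPC1 and 511 ± 75.5 with clone K. The log2 fold changes were -0.70 for clone K (SE 0.131, adjusted p = 2.1e-04), -0.81 for clone E, -0.92 for clone M, -1.03 for clone V, -1.06 for clone N, -1.14 for clone T, -1.15 for clone H and -1.27 for KPC1 (SE 0.132, adjusted p = 2.4e-09). Of all genes tested, 3.19% were called lower with all 8 lines, as Mmp14 was.

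Mmp2 (ENSMUSG00000031740, chr8:92827291-92853420, plus strand), a gelatinase made by most fibroblasts, moved beside Mmp14. Its mono-culture libraries read 389, 344, 385 and 300 CPM. The highest line was clone E with 189, 225, 232 and 203 CPM, and the lowest was KPC1 with 106, 150, 194 and 133 CPM. Every co-culture library lay below every mono-culture library here too, since the 32 ranged from 105 to 232 CPM with a median of 187. The mean of 354 ± 41.3 CPM fell to 212 ± 19.9 with clone E (log2 fold change -0.74, SE 0.154, adjusted p = 4.1e-04) and to 146 ± 37.1 with KPC1 (-1.28, SE 0.156, adjusted p = 4.0e-08). The other lines lay between, at 209 CPM with clone K, 201 with clone M, 188 with clone N, 178 with clone V, 169 with clone H and 150 with clone T, all called. Over the 8 co-cultures the mean log2 CPM of Mmp2 and Mmp14 had a Pearson r of 0.91, which describes 8 group means that come from the same libraries and scaling.

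Mmp9 (ENSMUSG00000017737, chr2:164940780-164955850, plus strand), the second gelatinase, best known from neutrophils and macrophages, was low at the outset and fell further. In mono-culture its 4 libraries read 5.72, 5.89, 3.73 and 4.71 CPM. Clone T, the lowest line, read 0.674, 1.21, 0.437 and 0.830 CPM and clone V, the highest, 3.46, 1.83, 0.599 and 0.778 CPM. The lines were uneven within themselves. Clone K read 3.91, 1.04, 0.317 and 1.12 CPM and clone E 3.02, 0.719, 0.245 and 0.638 CPM. Each held 1 library far above the other 3. The unevenness went partly with the replicate number. Among the co-cultures, Mmp9 was highest in replicate 1 with 5 lines and in replicate 2 with 3. It was lowest in replicate 3 with 6 lines and in replicate 4 with 2. The cause of this was not tested. Of the 32 co-culture libraries 31 were below the lowest mono-culture library, the exception being clone K replicate 1. The share of all genes with as many libraries below was not computed. The fall was called with 7 lines, from -1.58 for clone V (SE 0.676, adjusted p = 0.046) to -2.66 for clone T (SE 0.724, adjusted p = 0.0029). With clone K the log2 fold change was -1.63 (SE 0.677, adjusted p = 0.092), and without its replicate 1 it was -2.59 (adjusted p = 0.016). The call for clone V was lost without any 1 of clone V replicates 2, 3 or 4 or any 1 of the 4 mono-culture libraries (adjusted p up to 0.13, log2 fold change as small as -1.30). That for clone E was lost without clone E replicate 2, 3 or 4 (adjusted p = 0.063, 0.078 and 0.06), and that for clone N without clone N replicate 4 (-1.86, adjusted p = 0.054).

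Markers of leukocytes stand beside Mmp9 as follows. The 4 neutrophil markers examined summed to at most 0.168 CPM in any library. The 5 macrophage markers summed to 5.70 to 9.30 CPM in the mono-culture and to 1.44 to 16.2 CPM in the co-cultures. Ptprc, the pan-leukocyte marker, was at 0 in all mono-culture libraries and had at most 3 counts in any co-culture library. Lyz2, a myeloid lysozyme in that list, averaged 3.32 CPM in mono-culture, 1.61 with clone K and between 0.0379 and 0.795 with the other lines. Cd68, a lysosomal marker, averaged 3.37 CPM in mono-culture and 3.67 to 13 CPM in co-culture. Their part in the level of Mmp9 was not tested.

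Mmp3 (ENSMUSG00000043613, chr9:7445822-7455975, plus strand), stromelysin 1, which cuts proteoglycans and activates other pro-enzymes, was the member that differed most by tumour line. The mono-culture libraries read 0.936, 0.935, 0.532 and 0.594 CPM, which is 7 to 17 counts. With clone M they read 22.2, 36.5, 16 and 23.7 CPM and with clone K 9.34, 12.5, 6.13 and 15 CPM. These lie above every mono-culture library, as did the libraries of clones E, N and T. Clone E read 5.51, 8.01, 4.36 and 5.81 CPM, clone N 6.87, 6.17, 3.49 and 1.25 CPM and clone T 1.57, 1.37, 3.55 and 4.32 CPM. The 3 other lines overlapped the mono-culture. Clone H read 0.599, 0.657, 0.516 and 1.27 CPM, clone V 0.254, 0.674, 0.0545 and 0.897 CPM and KPC1 0.738, 0.362, 0.123 and 0.798 CPM. In 1 library of clone V and 1 of KPC1 the gene was at or under 3 counts.

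The mean of Mmp3 thus went from 0.749 ± 0.216 CPM in mono-culture to 24.6 ± 8.61 with clone M, a log2 fold change of 5.01 (SE 0.515, 32.3-fold, adjusted p = 2.3e-08). It was 3.82 for clone K (SE 0.505, adjusted p = 2.2e-06), 2.96 for clone E (adjusted p = 4.5e-05), 2.56 for clone N (adjusted p = 1.8e-04) and 1.83 for clone T (SE 0.519, adjusted p = 0.0041). Clone H had 0.03 (adjusted p = 0.97), KPC1 -0.55 (SE 0.624, adjusted p = 0.46) and clone V -0.69 (SE 0.626, adjusted p = 0.36), none of them called. Along the order M, K, E, N, T, H, KPC1, V the neighbours did not differ beyond their spread by the p adjusted over the genes of each pair, with the exception of T and H (1.80, SE 0.508, adjusted p = 0.027). Adjusted over all genes and the 28 pairs together, M and K also differed (1.19, SE 0.407, adjusted p = 0.026). With that joint adjustment 21 of the 28 pairs of lines differed (75.0%), against 28.2% for all genes and pairs together. The ends of the order, clones M and V, differed by 5.70 on the log2 scale (SE 0.543, adjusted p = 1.1e-09). No single library ended or made a call for Mmp3 against mono-culture.

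Mmp10 (ENSMUSG00000047562, chr9:7502352-7510240, plus strand), stromelysin 2, is usually an epithelial product. It had 0 counts in the 4 mono-culture libraries, which allows up to 0.137 to 0.228 CPM in single libraries and 0.174 CPM on average (3 counts, counting error only), and 145 counts in the 32 co-culture libraries together. At least 1 count was seen in 30 of these 32 and more than 3 counts in 15. Clone V read 0.153, 0.193, 0.218 and 1.14 CPM, clone K 0.141, 0.325, 0.582 and 0.405 CPM and clone H 0.240, 0.606, 0.413 and 0.0436 CPM. Against this average floor clone V was at least 2.45-fold higher, clone K at least 2.09-fold and clone H at least 1.87-fold. The first of these rested on replicate 4 of clone V with 19 counts, and without it the bound was 1.08-fold. KPC1 was at least 1.77-fold higher. The means of clones E, N and T lay under this average floor and that of clone M was at it. For these lines it therefore gives no bound, which does not mean that they equalled the mono-culture. In a fit without the filter on low counts Mmp10 was called higher with each of the 8 lines (adjusted p between 3.1e-04 and 0.034), and DESeq2, which keeps low counts, called it with each as well (adjusted p between 1.3e-04 and 0.025).

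Mmp13 (ENSMUSG00000050578, chr9:7272514-7283331, plus strand), the main interstitial collagenase of the mouse, had 1 count in the 4 mono-culture libraries together. Clone N read 0.692, 1.41, 2.15 and 1.47 CPM, KPC1 2.16, 0.724, 0.370 and 0.855 CPM and clone T 0.449, 0.549, 0.765 and 0.443 CPM. The libraries of these 3 lines all lay above the floor and above the mono-culture. Clone H read 0.719, 0.0505, 0.723 and 0.262 CPM, clone M 0.558, 0.182, 0.458 and 0.149 CPM and clone E 0.192, 0.479, 0.245 and 0.191 CPM. Clones M and E lay above the mono-culture as well, while clone H overlapped it. Clone V read 0.00, 0.0963, 0.163 and 0.538 CPM and clone K 0.0471, 0.0650, 0.159 and 0.405 CPM, and both overlapped it. As sums over 4 libraries clone N had 98 counts and KPC1 74 counts against the 1 count of the mono-culture, and clones K and V had 14 each. The ratio to mono-culture was 98.2 for clone N (95% counting interval 17.2 to 3919), 76.2 for KPC1 (13.3 to 3050) and 12.9 for clone K (1.96 to 544), so its size is poorly known for every line. The rise was called with 7 lines (adjusted p = 1.2e-05 for clone N, 1.9e-05 for KPC1 and 5.0e-04 for clone T) and not with clone K (adjusted p = 0.074). The call for clone V (adjusted p = 0.024) was lost without clone V replicate 4 (adjusted p = 0.18) and without mono-culture replicate 1, 2 or 4 (adjusted p = 0.062, 0.06 and 0.068), and clone K was called without mono-culture replicate 3 (adjusted p = 0.045). Beside the mean Mmp13 of 1.43 CPM with clone N, 1.03 with KPC1, 0.552 with T and 0.438 with H, the epithelial markers summed to a mean of 536, 356, 499 and 157 CPM. Beside 0.337 CPM with clone M, 0.277 with E, 0.200 with V and 0.169 with K, they summed to 250, 355, 101 and 151 CPM. Whether the Mmp13 reads came from tumour cells was not tested.

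Mmp11 (ENSMUSG00000000901, chr10:75923222-75936496, minus strand), stromelysin 3, a gene typical of fibroblasts around carcinomas whose enzyme is already active when secreted, differed in direction between lines. The mono-culture libraries read 81.7, 74.8, 88.6 and 69.1 CPM. Clone N read 40.9, 41.1, 54 and 51.4 CPM, clone M 56.6, 48.1, 47.6 and 48.3 CPM and clone E 41.9, 51.7, 49.8 and 57.9 CPM. These 3 lines lay wholly below the mono-culture, and so did clone K with 55.9, 57.7, 65.6 and 50.5 CPM. Clone T overlapped it with 63, 83.6, 71.3 and 74.8 CPM. Clone H lay wholly above it with 92.5, 95.2, 103 and 91.1 CPM. Clone V with 98.7, 109, 122 and 78.1 CPM and KPC1 with 96.6, 141, 90.4 and 83.5 CPM each had 3 libraries above the highest mono-culture library and 1 within the mono-culture range.

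Against the mono-culture mean of 78.5 ± 8.45 CPM, Mmp11 fell with clone N (log2 fold change -0.75, SE 0.139, adjusted p = 7.6e-05), clone M (-0.65, adjusted p = 8.5e-04), clone E (-0.64, adjusted p = 6.4e-04) and clone K (-0.45, SE 0.138, adjusted p = 0.02). It rose with KPC1 (0.39, SE 0.138, adjusted p = 0.015) and clone V (0.38, SE 0.138, adjusted p = 0.02), while clone H had 0.28 (adjusted p = 0.081) and clone T -0.10 (adjusted p = 0.57). A gene called higher with at least 1 line and lower with at least 1 other made up 5.35% of all genes tested. The 2 rises were the less firm side. Scaling by library size alone gave 0.30 for KPC1 (adjusted p = 0.062) and 0.28 for clone V (adjusted p = 0.082). They were also lost without mono-culture replicate 4 (0.33 for each, adjusted p = 0.057 and 0.061), without KPC1 replicate 2 (0.21, adjusted p = 0.17) and without clone V replicate 3 (0.28, adjusted p = 0.09). The fall with clone K was lost without its replicate 4 (-0.40, adjusted p = 0.058) or mono-culture replicate 3 (-0.38, adjusted p = 0.084), and without the latter clone H was called (0.36, adjusted p = 0.046). The difference between lines does not use the mono-culture: KPC1 exceeded clone N by 1.14 (SE 0.140, 2.20-fold, adjusted p = 1.6e-06). With the joint adjustment 18 of 28 pairs of lines differed (64.3%), against 28.2% for all genes and pairs together. In the order KPC1, V, H, T, K, E, M, N the neighbours T and K differed (0.35, SE 0.138, adjusted p = 0.042) and no other neighbours did. With the joint adjustment T and K did not differ (0.056) and H and T did (0.38, adjusted p = 0.035).

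Mmp19 (ENSMUSG00000025355, chr10:128790910-128800824, plus strand), a metalloproteinase of basement membrane and matrix proteins, was higher with each of the 7 clones and not called with KPC1. Without tumour cells the libraries read 70.4, 69.5, 65.5 and 60.5 CPM. The 32 co-culture libraries lay between 62.8 and 139 CPM (median 90.2), and those of clone H and KPC1 overlapped these 4. The mean of 66.5 ± 4.52 CPM became 106 ± 29.3 with clone V (log2 fold change 0.68, SE 0.166, adjusted p = 7.8e-04), 102 ± 14.6 with clone N (0.61, adjusted p = 0.0037) and 96.4 ± 15.3 with clone E (0.54, adjusted p = 0.013). Clone K (0.50, adjusted p = 0.03), clone M (0.49, adjusted p = 0.031), clone T (0.45, adjusted p = 0.024) and clone H (0.43, adjusted p = 0.029) were called too, and KPC1 at 75.5 ± 11.9 CPM was not (0.18, adjusted p = 0.35). Among the co-cultures, Mmp19 was highest in replicate 2 with 6 lines, in replicate 1 with 1 and in replicate 3 with 1. Most of the calls against mono-culture hung on single libraries. They were lost for clone E without its replicate 2 (0.44), for clone H without its replicate 1 (0.39) or 2 (0.27) and for clone T without its replicate 2 (0.35). They were lost for clone K without its replicate 2 (0.47) or 3 (0.46) or mono-culture replicate 3 (0.50), for clone M without its replicate 1 (0.48) or 2 (0.42) or mono-culture replicate 1 (0.50) or 3 (0.49), and for clones H, K, M and T without mono-culture replicate 4 (0.39, 0.46, 0.44 and 0.41), with adjusted p between 0.05 and 0.17. Without any 1 library the calls for clones N and V held. KPC1 was also lower than clone N by 0.43 on the log2 scale (SE 0.165, adjusted p = 0.041 within the pair and 0.049 over the 28 pairs). Scaling by library size alone ended the call for clone H (0.33, adjusted p = 0.066).

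Timp1 (ENSMUSG00000001131, chrX:20870166-20874735, plus strand), a secreted inhibitor of most metalloproteinases that binds Mmp14 poorly, rose with 6 of 8 lines. The mono-culture libraries read 47.2, 52.6, 56.4 and 44.6 CPM. Clone V read 271, 179, 144 and 118 CPM, KPC1 150, 232, 114 and 123 CPM and clone N 124, 99.2, 125 and 170 CPM. No library of these lines came near the mono-culture, and those of clones H, T and E lay above it as well. Clone H read 107, 126, 107 and 106 CPM, clone T 93.9, 157, 106 and 90.7 CPM and clone E 115, 96.2, 88.4 and 83 CPM. Clones K and M overlapped the mono-culture. Clone K read 68.5, 56, 75.5 and 48.5 CPM and clone M 51.4, 59.4, 58.1 and 58.8 CPM. From a mono-culture mean of 50.2 ± 5.33 CPM the log2 fold change was 1.83 for clone V (178 ± 66.8 CPM, SE 0.222, adjusted p = 4.9e-08), 1.62 for KPC1 (155 ± 53.7 CPM, adjusted p = 3.2e-07), 1.37 for clone N, 1.16 for clone T, 1.15 for clone H and 0.93 for clone E (adjusted p = 0.0014). Clone K had 0.31 (SE 0.217, adjusted p = 0.35) and clone M 0.18 (SE 0.218, adjusted p = 0.6). No single library ended or made a call for Timp1 against mono-culture. Among the lines, ordered V, KPC1, N, H, T, E, K, M, no neighbours differed within their pair. With the joint adjustment E and K did (0.62, SE 0.216, adjusted p = 0.029). By that adjustment 16 of 28 pairs differed (57.1%), against 28.2% for all genes and pairs together.

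Timp3 (ENSMUSG00000020044, chr10:86300372-86349506, plus strand), the inhibitor that stays bound to the matrix and also blocks ADAM and ADAMTS proteases, was abundant throughout and uneven between libraries. Its values in mono-culture were 919, 1132, 884 and 1158 CPM. Clone K read 2931, 2603, 2347 and 946 CPM, clone V 1656, 3236, 2099 and 1797 CPM and clone N 2861, 1784, 1785 and 1170 CPM. Clones V and N lay wholly above the mono-culture, and clone K did so in 3 of its 4 libraries. Clone E read 1953, 1843, 1275 and 900 CPM, clone H 1333, 1884, 1206 and 856 CPM and clone T 1098, 1355, 1195 and 800 CPM. KPC1 read 866, 1177, 843 and 707 CPM and clone M 792, 1398, 602 and 712 CPM. These 5 groups overlapped the mono-culture. Among the co-cultures, Timp3 was lowest in replicate 4 with 6 lines, in replicate 1 with 1 and in replicate 3 with 1. Its highest library was never replicate 3 or 4. The cause of this was not tested. The rise was called for clone K (log2 fold change 1.11, SE 0.317, adjusted p = 0.013), clone V (1.10, SE 0.317, adjusted p = 0.0037) and clone N (0.89, SE 0.316, adjusted p = 0.025). The other 5 lay between -0.22 for clone M and 0.54 for clone E, with adjusted p of 0.2 and above. The call for clone K was lost without its replicate 1 (0.94, adjusted p = 0.053), and that for clone N without its replicate 1 (0.60, adjusted p = 0.15) or mono-culture replicate 1 (0.82, adjusted p = 0.072) or 3 (0.84, adjusted p = 0.061).

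RPKM values, which divide by gene length, allow the members to be set beside each other. Summed over the 8 metalloproteinases, the mono-culture held 513 ± 47.7 RPKM (460 to 563), and no co-culture library reached that range. The means of the lines lay between 243 ± 27.2 RPKM with KPC1 and 326 ± 20.9 with clone K. Mmp14 made up 65.2% ± 0.718 of this sum in mono-culture and 53.4% ± 4.61 with KPC1 to 60.5% ± 2.96 with clone K, and Mmp14 and Mmp2 together made up 88.6% ± 0.217 and 72.3% ± 5.92 to 82.3% ± 1.23. In RPKM, Mmp14 stood at 334 ± 28.6 and Mmp2 at 120 ± 14.6 in mono-culture, against 130 ± 18.1 and 46.4 ± 12 with KPC1. Even with clone M, Mmp3 reached 14.0 ± 4.71 RPKM and lay far under Mmp14, at 174 RPKM.

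Timp1 and Timp3 together held 285 ± 26.2 RPKM in mono-culture, 650 ± 146 with clone V, 550 ± 149 with clone N, 538 ± 189 with clone K and 256 ± 74.0 with clone M, the only line with a mean below the mono-culture. The ratio of the inhibitor sum to the metalloproteinase sum was 0.564 ± 0.104 in mono-culture, with libraries between 0.467 and 0.680. It was 2.29 ± 0.398 with clone V, 2.10 ± 0.735 with clone N, 1.65 ± 0.594 with clone K and 1.5 ± 0.3 with clone H. It was 1.48 ± 0.390 with KPC1, 1.43 ± 0.313 with clone T, 1.40 ± 0.457 with clone E and 0.831 ± 0.194 with clone M. The lowest co-culture library, at 0.694 with clone M, was just above the highest mono-culture library. Timp2, which is not among the 10 genes, is left out of this sum and was itself abundant, at 397 ± 10.8 RPKM in mono-culture, 139 ± 30.3 with clone V, 160 ± 22.7 with clone H and 175 ± 16.4 with KPC1. With Timp2 added, the inhibitor sum was 682 ± 36.8 RPKM in mono-culture and between 533 ± 86 with KPC1 and 962 ± 190 with clone K. The ratio was then 1.34 ± 0.197 in mono-culture (1.15 to 1.56) and between 2.07 ± 0.204 with clone M and 3.29 ± 0.843 with clone N, with the lowest co-culture library at 1.79. These are sums of transcripts and not of active protein, and no test was run on them.

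**Figure D3:**
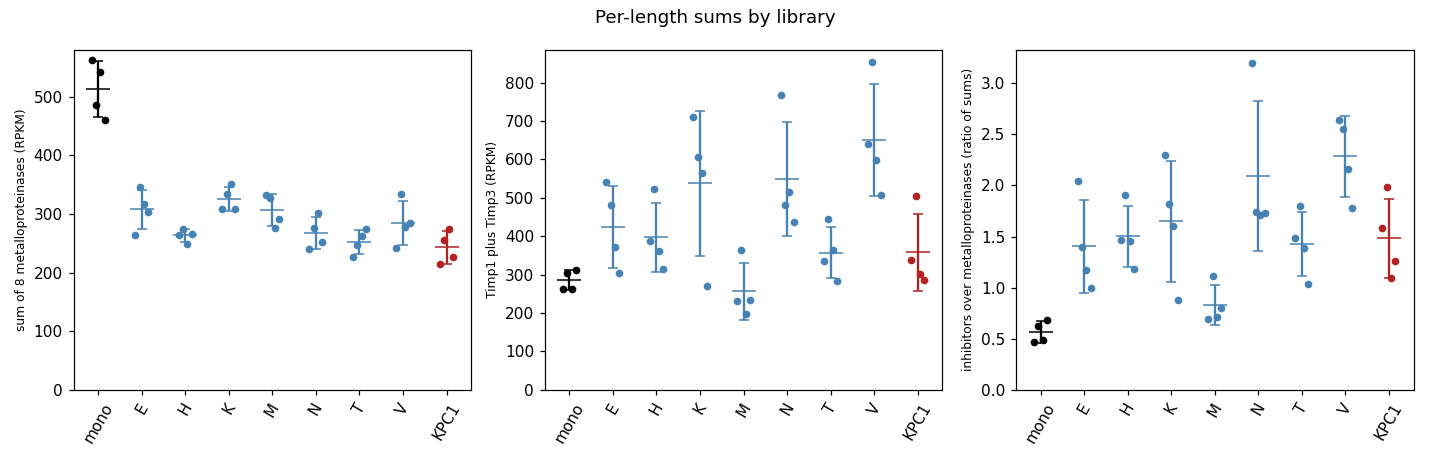
Summed RPKM of the 8 metalloproteinases (left), of Timp1 and Timp3 (middle) and the ratio of the 2 sums (right) in the 36 libraries by group, on linear axes from 0. Points are libraries, horizontal marks are means of 4 and bars are SD. The mono-culture sum of 513 RPKM stands above all co-cultures, and the ratio is lowest in mono-culture at 0.564.

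The second comparison set the mean of the 7 clonal co-cultures against the mono-culture. Of the 9 members tested, 8 were called, where 49.2% of all genes were. Mmp9 fell by 2.17 on the log2 scale (SE 0.435, adjusted p = 1.3e-04), Mmp14 by 0.97 (SE 0.0905, adjusted p = 3.7e-10) and Mmp2 by 0.93 (SE 0.107, adjusted p = 2.2e-08). Mmp3 rose by 2.22 (SE 0.442, adjusted p = 1.2e-04), Timp1 by 0.99 (SE 0.178, adjusted p = 3.2e-05) and Mmp19 by 0.53 (SE 0.131, adjusted p = 0.0012), and Mmp13 was called higher (adjusted p = 7.3e-04). Timp3 had 0.56 (SE 0.249, adjusted p = 0.063), and it was called without replicate 4 of clone E (adjusted p = 0.049), clone K (0.03) or clone N (0.045). Mmp11 fell by 0.28 (SE 0.102, adjusted p = 0.025), a mean over lines of opposite sign, and was lost without mono-culture replicate 1 (-0.27, adjusted p = 0.065) or 3 (-0.20, adjusted p = 0.18).

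The third comparison asked which members differed among the 7 clones, in 1 F-test without the mono-culture. Of the 9 members 7 were called, where 67.5% of all genes were. Mmp3 had an adjusted p of 1.7e-10, Mmp11 of 5.2e-09, Timp1 of 7.9e-07, Mmp13 of 0.0013, Timp3 of 0.0023, Mmp14 of 0.015 and Mmp2 of 0.045. The last was lost on leaving out any of 21 of the 28 clonal libraries in turn (adjusted p up to 0.14, without clone T replicate 1), and Mmp14 without clone K replicate 3 (0.056). Mmp19 (adjusted p = 0.75) and Mmp9 (0.64) were not called. Between the highest and the lowest of the 8 lines the mean CPM differed 52.3-fold for Mmp3 (24.6 with clone M and 0.470 with clone V), 3.13-fold for Timp1, 2.52-fold for Timp3 and 2.20-fold for Mmp11. For Mmp14, Mmp2 and Mmp19 it differed 1.49-fold, 1.45-fold and 1.40-fold. With the joint adjustment over the 28 pairs of the 8 lines, 28.6% of pairs differed for Mmp13 and for Timp3. The share was 21.4% for Mmp2 and for Mmp14, 7.14% for Mmp19 and 0% for Mmp9. For all genes and pairs together it was 28.2%.

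Over the 8 co-cultures most lines with much Mmp3 had little Timp1 and Mmp11. Clone N was an exception for Timp1. It had 4.45 CPM of Mmp3, called higher than mono-culture, and 129 CPM of Timp1, exceeded only by clone V and KPC1. The mean log2 CPM of Mmp3 had a Pearson r of -0.90 with Timp1 and of -0.89 with Mmp11, Mmp9 one of 0.92 with Timp3, and the 36 pairs of members ranged from -0.90 to 0.92 with a median of 0.06. These describe 8 group means, share libraries and depth, and carry no test. Clone M and clone V stood at the ends: clone M had the most Mmp3 and the least Timp1 and Timp3, and clone V the least Mmp3 and the most Timp1.

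**Figure D4:**
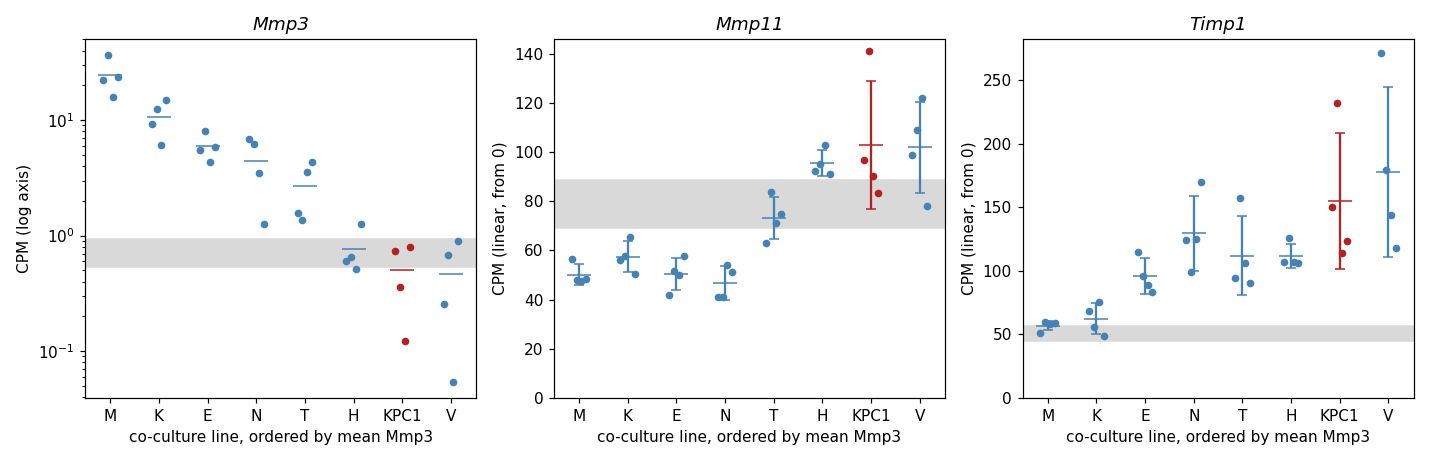
CPM of Mmp3 (log axis), Mmp11 and Timp1 (linear axes from 0) in the 8 co-cultures, ordered in each panel by mean Mmp3. Points are libraries, horizontal marks are means of 4, bars are SD (not drawn on the log axis) and the grey band is the range of the 4 mono-culture libraries. Mmp3 goes from 24.6 CPM with clone M to 0.470 with clone V, while Timp1 goes from 56.9 to 178 CPM.

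The genes whose group means followed these 3 members most closely over all 9 groups, by Pearson r of mean log2 CPM, were as follows. For Mmp3 they were Smap2 (r = 0.990), Arhgef25 (0.986) and Stra6 (0.985), the cell surface receptor for vitamin A transport. Stra6 averaged 28.5 CPM with clone M, 21.1 with clone K, 5.07 in mono-culture and 3.02 with KPC1. For Mmp11 they were Cfl2 (0.990), a cofilin that severs actin filaments, Fez1 (0.982) and Ubxn4 (0.982), and for Timp1 the host transcript Mir22hg (0.981), Sec62 (0.977) and Fam110c (0.976). They were picked as the highest of 14439 genes over 9 points.

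KPC1 was last compared with the mean of the 7 clones. Of the 9 members 8 were called, where 41.1% of all genes were. Mmp3 was lower by 2.77 on the log2 scale with KPC1 (SE 0.475, adjusted p = 4.4e-05), Timp3 by 0.75, Mmp2 by 0.35, Mmp19 by 0.34 and Mmp14 by 0.30, with adjusted p between 0.017 and 0.032 for these 4. Mmp13 was higher by 1.44 (SE 0.433, adjusted p = 0.0085), Mmp11 by 0.67 (SE 0.0985, adjusted p = 6.2e-06) and Timp1 by 0.63 (SE 0.153, adjusted p = 0.0015), and Mmp9 was not called (-0.39, adjusted p = 0.62). The KPC1 libraries were uneven, and the calls for Mmp3 and Mmp11 alone survived leaving out each library. Without KPC1 replicate 1, at 2.16 CPM of Mmp13, the count of called members was 3, and without replicate 4 it was 4. Mmp13 was then 0.77 (adjusted p = 0.27) without replicate 1, and Timp1 was 0.38 (adjusted p = 0.068) without replicate 2. Mmp2 was lost without replicate 1 (-0.23) or 4 (-0.30), Mmp14 without replicate 1 (-0.27), 2 (-0.25) or 4 (-0.28), and Mmp19 (-0.37, -0.27 and -0.31) and Timp3 (-0.74, -0.72 and -0.65) without replicate 1, 3 or 4.

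Other genes around these enzymes were taken from 5 lists. The rest of the family held 17 genes, of which 8 were tested. In the mean of the 7 clones 1 was called higher and 4 lower, where 24.3% of all genes were higher and 24.9% lower, and the median log2 fold change of the 8 was -0.33 against 0.0058 for all genes. Mmp16, a second membrane-type enzyme, averaged 67.3 ± 4.71 CPM in mono-culture, fell with each of the 8 lines and was lowest with KPC1 at 9.20 ± 1.69 CPM (log2 fold change -2.87, SE 0.204, adjusted p = 4.8e-12). Mmp23 went from 27.2 ± 2.69 CPM to between 10.4 ± 2.58 with clone V and 24.7 ± 2.20 with clone K, a fall called with 6 lines. Mmp28, or epilysin, rose with 5 lines (0.68 in the mean of the clones, SE 0.163, adjusted p = 8.8e-04). Mmp15 (-1.05, adjusted p = 7.5e-04) and Timp2 (-0.49, adjusted p = 1.0e-04), which helps Mmp14 to activate pro-Mmp2, were the other 2 that fell. By line, Timp2 was called lower with 4 of 8, from 1410 ± 61.3 CPM in mono-culture to 527 ± 119 with clone V. Mmp17 (0.42, adjusted p = 0.26), Mmp24 (-0.16, adjusted p = 0.89) and Mmp25 (-0.17, adjusted p = 0.77) were not called. Mmp7, Mmp8 and Mmp12 were among the 9 below the filter.

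Of 6 regulators of metalloproteinases, 4 were called higher and none lower in the mean of the clones, with a median of 0.55. Of all genes, 24.3% were higher and 24.9% lower. Cd44, a hyaluronan receptor that docks metalloproteinases at the cell surface, rose from 156 ± 10.5 CPM to between 254 ± 29.1 with clone M and 469 ± 63.4 with clone N (1.15, SE 0.117, adjusted p = 2.1e-09). Thbs2, a matrix protein that helps to clear Mmp2, rose from 278 ± 35 CPM to as much as 641 ± 121 with clone V (0.68, SE 0.132, adjusted p = 7.5e-05). Furin (0.46, adjusted p = 3.0e-05) and Reck (0.39, adjusted p = 0.019), a membrane-anchored inhibitor, were the others. Bsg (-0.15, adjusted p = 0.2) and Lrp1 (0.64, adjusted p = 0.054) were not called.

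Of 7 genes of the plasminogen system 5 were tested, 3 were called higher and none lower, with a median of 1.10. Here too, 24.3% of all genes were higher and 24.9% lower. Plaur, the urokinase receptor, went from 12.4 ± 1.18 CPM to between 15.8 ± 3.23 with clone M and 60.5 ± 6.35 with clone V (mean of the clones 1.42, SE 0.153, adjusted p = 6.8e-09). Its rise was called with 7 lines and not with clone M (adjusted p = 0.18). Plat, a plasminogen activator, rose from 112 ± 10.9 CPM to between 182 ± 40.5 with KPC1 and 322 ± 41 with clone N (1.10, SE 0.151, adjusted p = 5.1e-07) and was called with each of the 8 lines. Serpinb2 was called too (adjusted p = 0.026), with 3 counts in the 4 mono-culture libraries together and 60 with clone V, 29 with clone H and 5 with clones K and N each. Like Mmp13, it passed the filter through its level in co-culture, so its call was favoured by that choice. Plau (-0.12, adjusted p = 0.49) and Serpine2 (-0.27, adjusted p = 0.44) were not.

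The ADAM and ADAMTS list held 17 genes, 16 of them tested, with 5 called higher, 4 lower and a median of 0.10. These counts are near the shares of all genes, 24.3% higher and 24.9% lower. Adam12, a gene of activated fibroblasts, rose from 6.49 ± 0.411 CPM to 62.6 ± 6.67 with clone M and 11.9 ± 2.50 with KPC1 (mean of the clones 2.41, SE 0.279, adjusted p = 3.6e-08). Adam8 rose by 1.06 (SE 0.263, adjusted p = 0.0012), with 1.67 ± 0.472 CPM in mono-culture and at most 8.21 ± 2.43 with clone T. Adamts12 (1.04, adjusted p = 8.3e-06), called higher with all 8 lines, Adamts4 (0.57, adjusted p = 7.1e-04) and Adam9 (0.28, adjusted p = 0.0078) were the others called higher. The aggrecanases Adamts5 and Adamts1 fell. Adamts5 went from 842 ± 96.7 CPM to between 111 ± 32.5 with KPC1 and 474 ± 57.4 with clone K (-1.62, SE 0.172, adjusted p = 7.5e-09), and Adamts1 from 635 ± 99.8 to between 110 ± 23.7 with KPC1 and 401 ± 91.1 with clone K (-1.65, SE 0.198, adjusted p = 7.6e-08). The fall of Adamts1 was called with 7 lines and not with clone K (adjusted p = 0.13). Adam15 (-0.19, adjusted p = 0.0062) and Adam10 (-0.18, adjusted p = 0.0495) were called lower by little, and the other 7 tested genes of the list were not called.

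Of 8 AP-1 and ETS genes, all tested, 6 were called higher and none lower, with a median of 0.73. The shares of all genes were again 24.3% higher and 24.9% lower. Fosl1, a Fos-type partner in AP-1, went from 17.7 ± 0.788 CPM to 171 ± 52.4 with KPC1, 130 ± 37.9 with clone T and 29.3 ± 13.2 with clone M (mean of the clones 2.00, SE 0.243, adjusted p = 8.3e-08). Its rise was called with 6 lines and not with clone K (adjusted p = 0.053) or clone M (adjusted p = 0.061). Among the lines, clone M had the least Fosl1, close to clone K at 30.1 CPM, and the most Mmp3. KPC1 had the most Fosl1, and its Mmp3 was within the mono-culture range or below it. Mmp13 did not follow Mmp3 here, at 1.03 CPM with KPC1 and 0.337 CPM with clone M. The part of Fosl1 in the level of either gene was not tested. Jun rose by 0.90 in the mean of the clones (SE 0.331, adjusted p = 0.025), from 81.9 ± 28 CPM to between 120 ± 39.8 and 184 ± 65.7 with the clones. By line it was called with 3 of 8. Ets2 (0.89, adjusted p = 3.8e-08), Junb (0.88, adjusted p = 0.0037), Ets1 (0.59, adjusted p = 8.7e-05) and Jund (0.30, adjusted p = 0.043) were also called, and Fos (-0.01, SE 0.530, adjusted p = 0.99) and Fosl2 (0.14, adjusted p = 0.43) were not.

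**Figure D5:**
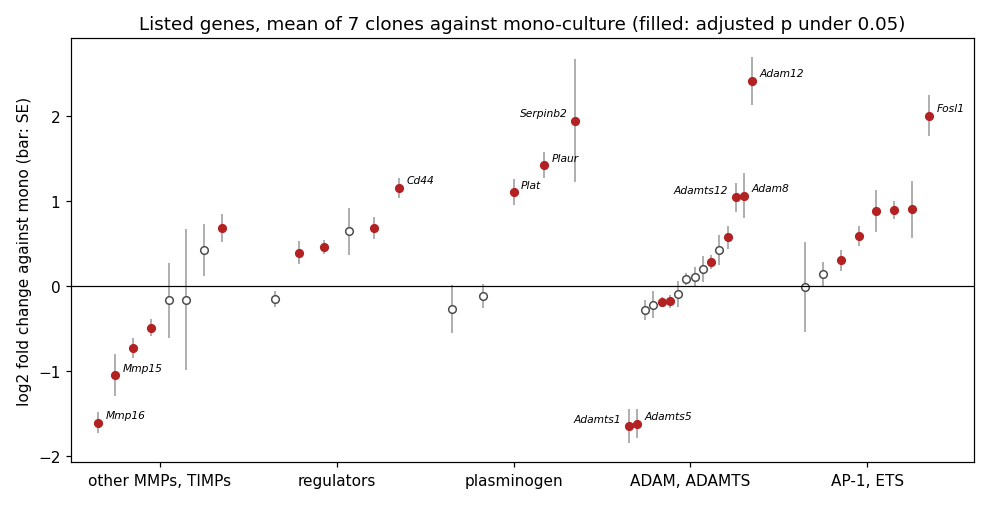
Log2 fold change of the mean of the 7 clones against mono-culture for the tested genes of the 5 lists, ordered by value within each list. Bars are SE, and filled points had an adjusted p under 0.05. The regulators, the plasminogen system and the AP-1 and ETS genes hold no filled point below 0, while the family and the ADAM and ADAMTS genes hold filled points on both sides.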

How the data were processed

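Strand-specific libraries of poly(A) RNA (input 200 ng, 14 amplification cycles) were read as paired ends of 76 bp. For each gene the authors deposited read counts, unscaled whole numbers, in 36 libraries, and RPKM values that divide these counts by gene length and library total. STAR, featureCounts, edgeR and the build mm10 are named in the submitters' processing notes, while the annotation and whether counting used strand are not given in the sources used here. Genes with close paralogs, Mmp3, Mmp10 and Mmp13 among them, are uncertain in so far as reads could be shared. Positions of genes are from GENCODE M21 and promoters from RefSeq.

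Counts were filtered with filterByExpr on the 9 groups, scaled by TMM and fitted with edgeR 4.0.16 in R 4.3.3 (estimateDisp, glmQLFit with robust estimation, glmQLFTest), with 1 coefficient per group over all 36 libraries. P-values were two-sided and adjusted by Benjamini-Hochberg over all 14439 genes tested. Each standard error is the log2 fold change divided by the square root of F. CPM are TMM-scaled, and RPKM were used as deposited. The floor was 3 counts. It and the exact 95% counting intervals cover counting error only, since amplified reads are not independent molecules. Library totals of 12532122 to 21985538 counts leave little counting error for abundant genes and a large one for Mmp9, Mmp10 and Mmp13.

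The members and lists were chosen with earlier results of these data known. All 10 members are named. Of the lists, 1 gene was left out of every count and is not reported here. Of other list genes, values by group are given for the 2 highest and 2 lowest fold changes among those called in the mean of the clones with a mean of at least 2 CPM, and the other genes called there are given with the fold change only. Genes of like pattern are the 3 of highest r for the 3 members of smallest p among the clones. The alternatives tried were DESeq2 1.42.0, RLE scaling, scaling by library size alone, testing without a filter or with a minimum of 10 counts in each library, a threshold of 0.1, only the 8 libraries of a comparison, a block by replicate number, limma-trend (limma 3.58.1) on log2 RPKM with a pseudocount of 0.1 or 1, and omission of each library. The procedure was tested on simulated counts. A chi-square test of the counts of each pair of libraries within a group gave at least 5.84 per degree of freedom, so none was counted as a duplicate. Same-numbered libraries were not taken as pairs, since not every same-number pair deviated together. Part of the spread among the co-cultures did go with the number, and the pairs of lines were not tested with a replicate block. No co-culture had more than 1 of 4 numbers with a correlation over 0.1 to the mono-culture, and among the co-cultures 63 of 112 same-number pairs had one (mean 0.14, against -0.05 for other numbers).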

Additional observations from a re-analysis of the deposited data

Results flagged for a closer look

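Of 89 sets of 4 libraries (1 member in 1 group) with a spread, 6 held 1 library apart from the other 3 by Dixon's ratio of gap to range, where chance gives about 1 in 20, or 4.45. Mmp9 with clone E stood at 3.02 CPM in replicate 1 and at 0.245 to 0.719 CPM in the others (ratio 0.82903). Replicate 1 held the highest Mmp9 with 5 lines, clone E among them. Mmp10 with clone V stood at 1.14 CPM in replicate 4 and at 0.153 to 0.218 CPM in the others (0.93361). Mmp11 with clone M stood at 56.6 CPM in replicate 1 and at 47.6 to 48.3 CPM in the others (0.92810). Mmp13 in mono-culture had its 1 count in replicate 3 and 0 in the others (ratio 1). That ratio is fixed when a single library differs from 0, so this flag carries no information and the chance number does not cover it. Timp1 with clone H stood at 126 CPM in replicate 2 and at 106 to 107 CPM in the others (0.90643). With clone M, Timp1 stood at 51.4 CPM in replicate 1 and at 58.1 to 59.4 CPM in the others (0.83889).

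The response of Mmp11 differed between lines by a test of the difference itself. The log2 fold change with KPC1 exceeded that with clone N by 1.14 (SE 0.140, edgeR adjusted p = 1.6e-06).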

How the results depend on the processing

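No called value reversed under any alternative. Of 99 single results, 98 kept their call with DESeq2, 99 with RLE scaling, 96 with library size alone, 95 without a filter, 93 and 91 with limma-trend at pseudocounts of 0.1 and 1, and 97 with the replicate block, as did 64 of 65 with only the 8 libraries compared. Mmp11 with clone V and KPC1 and Mmp19 with clone H were lost with library size alone and with limma-trend, as were Mmp13 calls with limma-trend only (clones E and V at both pseudocounts, H and M at 1). Without the filter Mmp9 with clone V (adjusted p = 0.089), Timp3 with clone N (0.053), Mmp19 between KPC1 and the clones (0.056) and Mmp2 among the clones (0.073) were lost. DESeq2 called Mmp13 with clone K (0.043), the 8 libraries alone called Mmp11 with clone H (0.019) and limma-trend called Mmp9 with clone K (0.016 and 0.0014), and the cause of these changes was not tested. A minimum of 10 counts in every library left 6 members to test and so fewer calls, 5 for clone E, 4 for M, 4 for T and 5 in the mean of the clones, while all 66 results kept their call. Called members between KPC1 and the clones ranged from 3 to 8 on leaving out single libraries. Same-numbered libraries were not taken as pairs. With a replicate block added, the calls of Mmp9 with clone K (adjusted p = 0.001) and Timp3 in the mean of the clones (0.48, adjusted p = 0.025) were gained. No other call of the 99 changed, and the pairs of lines were not run with the block. Of the co-culture libraries, 23 of 32 correlated best with their own number. Depth limits Mmp9, Mmp10 and Mmp13.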
